A study of Homo sapiens with 8 samples.

Results

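The collagen chains are the genes that encode the polypeptides of which collagens are made. They were taken here as every gene whose platform symbol has the form of a collagen chain symbol (COL, a type, A, a chain number) and that is named alone by at least 1 probe set. This gave 43 genes with 112 probe sets, out of 19775 genes with 41091 such probe sets on the array. Each gene was represented by its probe set with the highest mean signal over the 8 arrays. The 43 genes were 11 fibrillar chains, 9 network chains, 10 FACIT chains (fibril-associated collagens with interrupted triple helices) and 13 others. COL17A1, a transmembrane collagen listed in the RefSeq gene table, was not among the genes with such a probe set.

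The data are Affymetrix expression arrays of MDA-MB-231, an established line of metastatic human breast cancer cells, that carried a retroviral control short hairpin against GFP (shGFP). Both groups of cells had been kept for 24 hours without serum. The 4 TGFβ arrays come from cells then given TGFβ for 3 hours, at 5 µg/ml as the labels write the dose, and the 4 untreated arrays come from the same infected line without it. Each group has the replicate letters A, B, C and D, which the labels call biological without saying what a letter stands for. The p53-depleted arrays of the study were not analysed here.

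Collagens are triple helices of chains that assemble in the endoplasmic reticulum and are secreted into the extracellular matrix. Fibrillar collagens form the tensile fibrils of connective tissue, network collagens form the sheets of basement membranes and related matrices, and FACIT collagens sit on fibril surfaces. TGFβ, a cytokine that acts through SMAD transcription factors, is known as an inducer of collagen transcription in fibroblasts, where the type I chains COL1A1 and COL1A2 are common readouts.

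Values are RMA signals on the log2 scale, so that a difference of 1 is a doubling. Detection calls were not used here, and a low signal may be background. SMAD7, a direct TGFβ target, averaged 7.78 ± 0.34 on TGFβ arrays and 5.98 ± 0.41 on untreated arrays (SD, n = 4 each), higher by 1.81 ± 0.21 (SE) at an adjusted p of 0.0039 (limma). VIM and CD44, listed as present in this line, had a high signal. VIM had 13.65 on TGFβ arrays and 13.64 on untreated arrays, and CD44 had 11.57 on TGFβ arrays and 11.32 on untreated arrays. EPCAM, listed as low in this line, had 8.33 on TGFβ arrays and 8.39 on untreated arrays and so was not low, while ESR1 had 5.83 on TGFβ arrays and 5.76 on untreated arrays. CDH1, also listed as low, rose by 0.90 ± 0.11 to 4.98 on TGFβ arrays, against 4.08 on untreated arrays (SE, adjusted p = 0.00579, limma). Its untreated signals, 3.929 to 4.189, lay below the medians of those arrays, 4.626 to 4.645. They are not shown to be above background. The mean signal of 7 fibroblast markers was 4.19 to 4.29 on TGFβ arrays and 4.06 to 4.30 on untreated arrays, and 0 of the 7 passed the test, 0 with the replicate letter as a block in the model, and 0 had an unadjusted p under 0.05 (limma). TGFβ array A stood apart in RNA quality, with a 3′ minus 5′ difference of 1.68 in the actin control probe sets, against 0.627 to 0.893 on the other arrays. In these bulk samples, fewer cells of a type and less RNA per cell cannot be told apart.

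After 3 hours of TGFβ, 2 of the 43 collagen genes had risen and 0 had fallen (limma, adjusted p under 0.05 over all genes). They were COL1A1, the major chain of type I collagen fibrils, and COL4A1, a chain of the basement membrane network. Over all 19775 genes, 0.354% were called higher and 0.223% lower. At an unadjusted p under 0.05, 7 of the 43 were higher and 1 was lower, beside 3.95% of all genes higher and 4.19% lower. Arrays that share a replicate letter deviated from their group means together, so each difference was also tested within the letter, with the letter as a block in the same model. With this block 6 collagen genes had risen and 1 had fallen, while 1.39% of all genes were called higher and 2.18% lower. The risen genes were COL1A1, COL4A1, COL4A2, COL5A1, COL7A1 and COL27A1, and the fallen gene was COL8A1. The median log2 fold change of the 43 genes was 0.050, beside 0.009 over all genes, and 27 of the 43 (62.8%) were positive, beside 52.8% of all genes. Of the 7 genes called with the block, 4 (COL1A1, COL4A1, COL4A2 and COL5A1) had an adjusted p under 0.05 in each of the 4 block fits that left out a letter pair. Without letter pair A, which holds the array with the high 3′ minus 5′ difference, the block fit called 8 collagen genes, namely these 7 and COL16A1. The share of all genes called in that fit is not given here, so this count is not read as a result about the collagens.

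**Figure D1:**
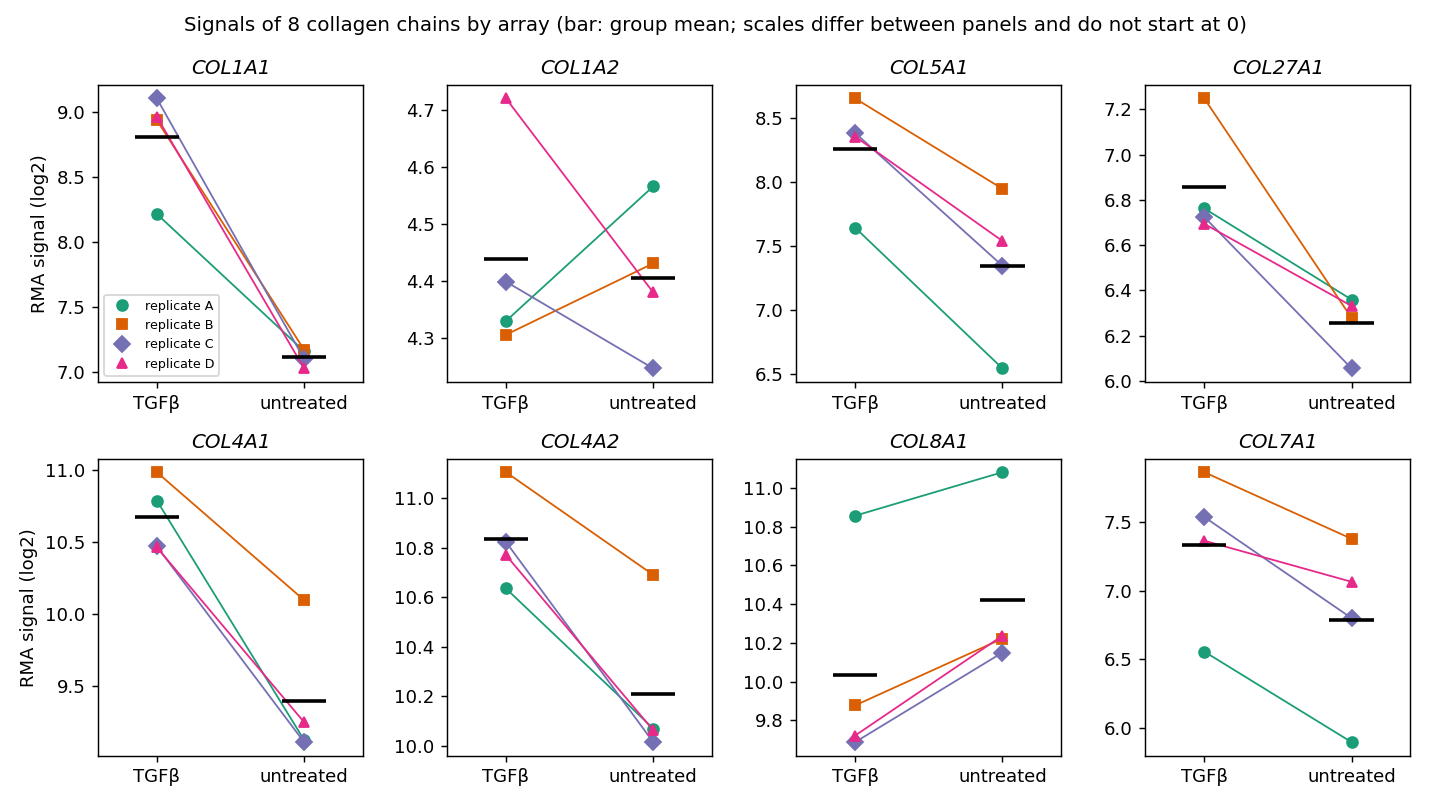
RMA signal (log2, vertical axes, with scales that differ between panels) of 8 collagen genes on the 4 TGFβ arrays (left in each panel) and the 4 untreated arrays (right). Points are arrays, lines join arrays of the same replicate letter and bars are group means. COL1A1, COL4A1 and COL27A1 have every TGFβ array above every untreated array, COL4A2, COL5A1 and COL7A1 overlap but are higher with TGFβ within every letter, COL8A1 is lower with TGFβ within every letter, and COL1A2 has no common direction.

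Among the fibrillar chains, 1 of 11 rose without the block and 3 of 11 with it, and 0 fell in either fit (limma). The median log2 fold change of the class was 0.079, with a range of -0.12 to 1.69. COL1A1 (Entrez Gene 1277) had signals of 8.218, 8.940, 9.107 and 8.966 on TGFβ arrays A to D, against 7.162, 7.173, 7.102 and 7.029 on untreated arrays A to D. Every TGFβ array lay above every untreated array, TGFβ array A was the lowest of its group, and the untreated arrays lay close together. The means were 8.81 ± 0.40 on TGFβ arrays and 7.12 ± 0.066 on untreated arrays (SD, n = 4 each). The log2 fold change was 1.69 ± 0.17, a 3.23-fold rise (SE, adjusted p = 0.00179, and 0.000149 with the block, limma). The rise passed the test in each of the 8 fits that left out 1 array, and it was 1.89 without TGFβ array A. With the signals of all its probe sets averaged, the log2 fold change was 0.71 (adjusted p = 0.0169, limma).

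The 5 probe sets that name COL1A1 gave unlike values. Besides 1556499_s_at, which represents the gene, 202310_s_at had 6.106, 6.766, 6.978 and 6.930 on TGFβ arrays, against 5.299, 5.451, 5.259 and 4.895 on untreated arrays. Its groups did not overlap either, and its log2 fold change was 1.47 (adjusted p = 0.0163 over all probe sets, limma). The other 3 had log2 fold changes of 0.19, 0.15 and 0.06 and did not pass the test. Probe set 217430_x_at, the second brightest of the 5, averaged 6.802 ± 0.17 on TGFβ arrays and 6.61 ± 0.066 on untreated arrays (SD, n = 4 each). All 5 carry the suffix _s_at or _x_at, by which Affymetrix marks probes that can match more than 1 transcript. Probe sets 1556499_s_at and 202310_s_at were the only ones called among the 112 of the collagen genes, and 0.152% of all 54613 tested probe sets were called higher. With the block, 11 of the 112 were called, all of them higher, beside 0.758% of all probe sets.

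**Figure D2:**
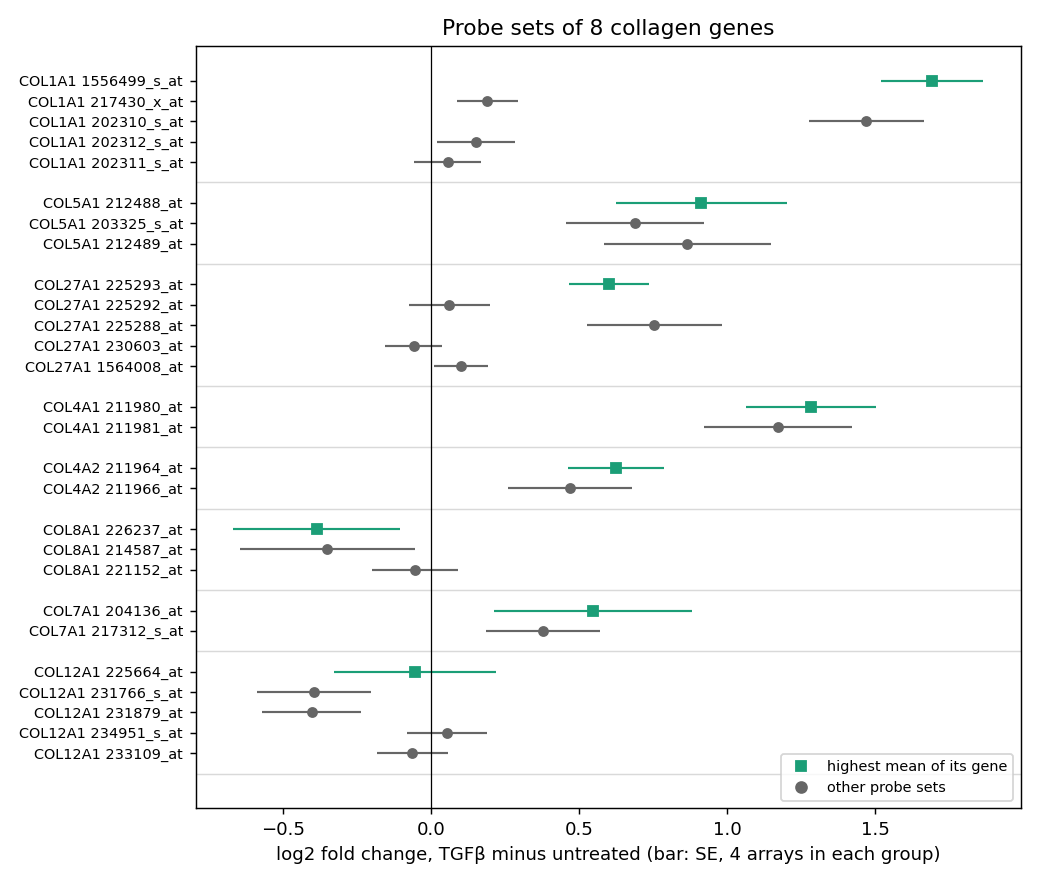
Log2 fold change, TGFβ minus untreated (horizontal axis, bars are the SE, 4 arrays in each group), of every probe set that names 1 of 8 collagen genes. Squares are the probe sets that represent their gene and circles are the others. For COL5A1, COL4A1, COL4A2, COL7A1 and COL8A1 all probe sets lie on the same side of 0, whereas 3 of the 5 probe sets of COL1A1 lie near 0 and those of COL27A1 lie between -0.06 and 0.75.

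COL1A2 (Entrez Gene 1278), the partner of COL1A1 in type I collagen, had 4.330, 4.306, 4.399 and 4.720 on TGFβ arrays, against 4.566, 4.431, 4.247 and 4.380 on untreated arrays. The groups overlapped and the letters went both ways. Its log2 fold change was 0.03 ± 0.12 (SE, adjusted p = 0.985, limma), from a signal that exceeded its array's median on TGFβ D alone. A dimmer probe set, 229218_at, had 3.302 to 3.567 on TGFβ arrays and 3.091 to 3.245 on untreated arrays, without overlap. This difference of 0.22 ± 0.092 (SE) missed the threshold at an adjusted p of 0.628, and of 0.375 with the block (limma). The third, 202404_s_at, had -0.18 and did not pass. COL3A1, the chain of type III collagen that forms fibrils with type I in skin and vessels, had 3.27 ± 0.11 on TGFβ arrays and 3.32 ± 0.13 on untreated arrays (SD, n = 4 each) and a log2 fold change of -0.05 ± 0.10 (SE).

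COL5A1 (Entrez Gene 1289) encodes a chain of type V collagen, which sets the diameter of type I fibrils. Its signal was 7.643, 8.650, 8.381 and 8.353 on TGFβ arrays A to D, against 6.546, 7.946, 7.346 and 7.539 on untreated arrays A to D. Letter A was lowest and letter B highest in both groups, and the groups overlapped because TGFβ A lay below untreated B. Within the letters the difference was 1.097, 0.704, 1.035 and 0.814. The log2 fold change of 0.91 ± 0.29 (SE, 1.88-fold) had an adjusted p of 0.306 without the block and rose with the block, at an adjusted p of 0.000447 and an SE of 0.094 (limma). All 3 probe sets were higher on TGFβ arrays, by 0.91, 0.86 and 0.69, and each passed with the block over all probe sets. Of the other type V chains, COL5A2 had a log2 fold change of 0.05 ± 0.11 and COL5A3 of -0.07 ± 0.11 (SE), and neither passed either test.

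COL27A1 (Entrez Gene 85301), a minor fibrillar chain known from cartilage, had 6.762, 7.248, 6.724 and 6.694 on TGFβ arrays A to D, against 6.359, 6.278, 6.055 and 6.331 on untreated arrays A to D. The groups did not overlap, and TGFβ B stood above its group. The log2 fold change was 0.60 ± 0.14 (SE, 1.52-fold, adjusted p = 0.111), and the gene rose with the block (adjusted p = 0.0144, limma). That call was lost without letter pair B (adjusted p = 0.0942) and without pair C (adjusted p = 0.0928). Of its 5 probe sets, 225288_at was higher by 0.75 and the 3 not yet named had -0.06, 0.06 and 0.10. With the 5 averaged, the log2 fold change was 0.29. The cartilage chains COL2A1, COL11A1 and COL11A2 had log2 fold changes of 0.17, -0.12 and 0.14, COL24A1 had 0.08, and none of the 4 passed either test.

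**Figure D3:**
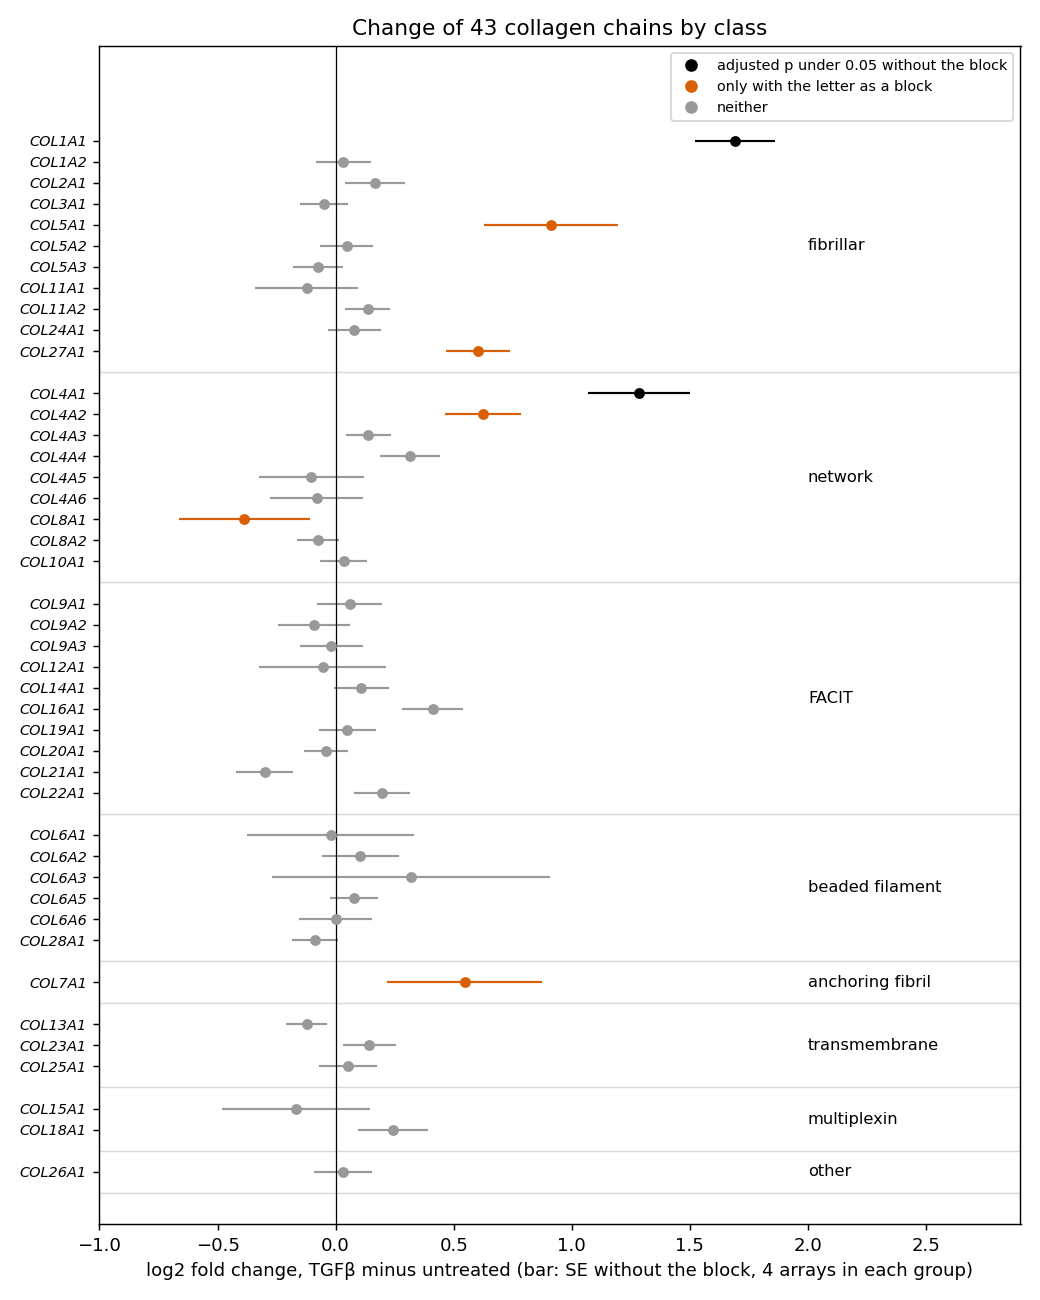
Log2 fold change, TGFβ minus untreated (horizontal axis), of the 43 collagen genes in their classes, from fibrillar at the top to COL26A1 at the bottom. Points are the estimates, bars are the SE without the block (4 arrays in each group), black marks genes that pass without the block, orange those that pass only with it and grey the rest. The 2 black points, COL1A1 and COL4A1, are at 1.69 and 1.28, and no FACIT chain is coloured.

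Of the 9 network chains, 1 rose without the block, and with it 2 rose and 1 fell (limma). The class had a median log2 fold change of 0.035 and a range of -0.39 to 1.28. COL4A1 and COL4A2 encode the chains of the type IV collagen found in nearly all basement membranes, and they lie head to head on chromosome 13, with 126 bases between their starts in the RefSeq annotation of GRCh38.p14. This stretch is shown because it lies before the starts of 2 genes that both rose with the block. It spans chr13:110307158-110307283 and is written on the plus strand, 5′ to 3′, with the start of COL4A1 (minus strand) to its left and that of COL4A2 (plus strand) to its right. Capitals mark matches to the CCAAT box and the GC box.
COL4A1 and COL4A2: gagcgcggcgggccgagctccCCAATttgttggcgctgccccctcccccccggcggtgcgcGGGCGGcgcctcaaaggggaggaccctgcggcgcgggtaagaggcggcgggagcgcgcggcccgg

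Its GC content is 80.2%. It was searched on both strands for the SMAD box CAGAC, the letters CCAAT, the GC box GGGCGG and the AP-1 site TGANTCA, none of which overlap there. It holds 1 CCAAT and 1 GGGCGG, which 21.1% and 34.6% of 35116 RefSeq promoter windows cut to the same length also hold. CAGAC and TGANTCA are not in these letters, and they are found in 19.8% and 3.50% of the windows.

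COL4A1 (Entrez Gene 1282) had 10.787, 10.984, 10.468 and 10.462 on TGFβ arrays A to D, against 9.121, 10.094, 9.106 and 9.245 on untreated arrays A to D. The groups did not overlap, and untreated B stood above the other untreated arrays. The means were 10.68 ± 0.26 on TGFβ arrays and 9.39 ± 0.47 on untreated arrays (SD, n = 4 each). Its log2 fold change was 1.28 ± 0.22, a 2.43-fold rise (SE, adjusted p = 0.0271, and 0.000247 with the block, limma). The call without the block held when untreated B (adjusted p = 0.00275) or TGFβ A (adjusted p = 0.0429) was left out. It was lost without untreated A, C or D (adjusted p = 0.0763, 0.123 and 0.104) and without TGFβ B, C or D (adjusted p = 0.0685, 0.0566 and 0.0775), where the log2 fold change lay between 1.18 and 1.35. Its second probe set was higher by 1.17, also without overlap.

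COL4A2 (Entrez Gene 1284) had 10.636, 11.106, 10.824 and 10.771 on TGFβ arrays A to D, against 10.070, 10.691, 10.015 and 10.063 on untreated arrays A to D. Only untreated B reached into the range of the TGFβ arrays, above TGFβ A. Within the letters the difference was 0.566, 0.415, 0.809 and 0.708. The log2 fold change was 0.62 ± 0.16 (SE, 1.54-fold, adjusted p = 0.172), and the gene rose with the block (adjusted p = 0.00432, limma). Without untreated B it was 0.78 and passed without the block too (adjusted p = 0.0276). Its second probe set was higher by 0.47 and did not pass with the block (adjusted p = 0.103 over all probe sets, limma).

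The other type IV chains form the trimers of kidney, eye and other specialised basement membranes, and they are encoded in similar head-to-head pairs. COL4A3 and COL4A4, with 418 bases between their nearest annotated starts, had log2 fold changes of 0.14 ± 0.095 and 0.31 ± 0.13 (SE). Both were higher on the TGFβ array within all 4 letters, but neither passed a test (adjusted p = 0.810 and 0.525, and 0.478 and 0.0795 with the block, limma). The signals of COL4A3 and COL4A4 lay below the array median on all 8 arrays, so they are not shown to be above background. COL4A5 and COL4A6, 379 bases apart, had log2 fold changes of -0.10 ± 0.22 and -0.08 ± 0.20 (SE) with letters in both directions.

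COL8A1 (Entrez Gene 1295), a short network-forming chain of vessel walls and of the corneal endothelial membrane, had 10.857, 9.877, 9.687 and 9.721 on TGFβ arrays A to D, against 11.082, 10.222, 10.150 and 10.237 on untreated arrays A to D. Letter A was highest in both groups, and the groups overlapped through it. Within letters the difference was -0.225, -0.345, -0.463 and -0.516. Its log2 fold change was -0.39 ± 0.28 (SE, adjusted p = 0.8287), and it fell with the block (adjusted p = 0.0380, limma). That call was lost without letter pair B, C or D (adjusted p = 0.157, 0.155 and 0.217). Adjusted over all probe sets, the same probe set had a p of 0.0775 with the block, and the other 2 had log2 fold changes of -0.35 and -0.06 and did not pass. COL8A2, its partner, had -0.07 ± 0.088 and COL10A1, the chain of growth plate cartilage, had 0.04 ± 0.10 (SE), and neither passed.

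None of the 10 FACIT chains passed the test with or without the block, and 2 had an unadjusted p under 0.05 without it (limma). Their median log2 fold change was 0.016, with a range of -0.30 to 0.41. COL16A1 (Entrez Gene 1307), a chain that associates with fibrils in several tissues, had 5.586, 5.659, 6.096 and 5.690 on TGFβ arrays, against 5.524, 5.141, 5.362 and 5.358 on untreated arrays. All TGFβ arrays lay above all untreated ones. The log2 fold change was 0.41 ± 0.13 (SE, adjusted p = 0.314, and 0.0808 with the block). Without letter pair A the block fit gave 0.53 and an adjusted p of 0.00861. COL21A1 had 2.572, 2.431, 2.370 and 2.629 on TGFβ arrays, against 2.918, 2.660, 2.580 and 3.048 on untreated arrays. It was lower with TGFβ within every letter, by -0.30 ± 0.12 (SE, adjusted p = 0.526, and 0.0915 with the block), at signals among the lowest of the collagens.

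COL22A1, which marks tissue junctions, was 0.20 ± 0.12 higher (SE), within all 4 letters, and did not pass. COL12A1, a chain on the surface of type I fibrils, had 8.12 ± 0.56 on TGFβ arrays and 8.17 ± 0.40 on untreated arrays (SD, n = 4 each). Its log2 fold change was -0.06 ± 0.27 (SE), while 2 dimmer probe sets had -0.40 each and did not pass. The other 6 FACIT chains were COL9A1, COL9A2 and COL9A3 of cartilage, with 0.06, -0.09 and -0.02, COL14A1 with 0.11, COL19A1 with 0.05 and COL20A1 with -0.04.

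Among the 13 other chains, 0 passed without the block and 0 had an unadjusted p under 0.05, and 1 rose with the block (limma). Their median log2 fold change was 0.052, with a range of -0.17 to 0.55. COL7A1 (Entrez Gene 1294), the chain of the anchoring fibrils that fix epithelium to the dermis, had 6.557, 7.866, 7.539 and 7.366 on TGFβ arrays A to D, against 5.896, 7.380, 6.801 and 7.066 on untreated arrays A to D. Letter A was lowest and letter B highest in both groups, which overlapped widely. The log2 fold change was 0.55 ± 0.33 (SE, 1.46-fold, adjusted p = 0.779), and COL7A1 rose with the block (adjusted p = 0.0115, limma). That call was lost without letter pair B (adjusted p = 0.0676) or C (adjusted p = 0.0747). Its second probe set was higher by 0.38 and did not pass with the block (adjusted p = 0.125 over all probe sets, limma).

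The promoters of COL5A1 and COL7A1 are shown because these genes, like the type IV pair, rose within every letter, and they allow the same motif search. They are not the full set, since COL1A1 and COL27A1 also rose with the block and were higher within every letter. The promoters of COL1A1 and COL27A1 are not shown. Both are the 250 bases before the RefSeq start in GRCh38.p14, written 5′ to 3′ in the direction of the gene. COL5A1 lies on the plus strand of chromosome 9 (chr9:134641553-134641802) and COL7A1 on the minus strand of chromosome 3 (chr3:48595330-48595579). Capitals mark matches on either strand to the GC box GGGCGG in both, and in COL7A1 also to the SMAD box CAGAC, whose reverse complement is printed.
COL5A1: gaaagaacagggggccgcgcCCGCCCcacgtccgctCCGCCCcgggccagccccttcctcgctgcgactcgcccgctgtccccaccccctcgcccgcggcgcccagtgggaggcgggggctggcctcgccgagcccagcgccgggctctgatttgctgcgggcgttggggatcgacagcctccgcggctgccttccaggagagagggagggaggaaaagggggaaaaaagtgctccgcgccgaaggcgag
COL7A1: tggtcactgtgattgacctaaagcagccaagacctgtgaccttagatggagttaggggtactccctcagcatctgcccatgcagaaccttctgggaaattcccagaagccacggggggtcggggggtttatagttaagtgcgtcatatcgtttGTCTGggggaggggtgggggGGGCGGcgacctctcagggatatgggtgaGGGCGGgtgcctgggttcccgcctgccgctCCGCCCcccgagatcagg

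The COL5A1 stretch has a GC content of 74.0% and 2 GC boxes, and holds neither CAGAC nor CCAAT nor TGANTCA. The COL7A1 stretch has a GC content of 60.8%, 1 SMAD box and 3 GC boxes, and holds neither CCAAT nor TGANTCA. Of all 35116 promoter windows of 250 bases, 38.0% hold CAGAC, 42.6% GGGCGG, 32.0% CCAAT and 6.57% TGANTCA. An entry was found for 31 of the 43 collagen genes.

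The remaining 12 chains did not pass either test. COL6A1, COL6A2 and COL6A3 form the beaded filaments around cells, and their log2 fold changes were -0.02 ± 0.35, 0.10 ± 0.16 and 0.32 ± 0.59 (SE). COL6A3 had 5.139, 7.609, 6.185 and 6.090 on TGFβ arrays A to D, against 4.617, 7.451, 5.704 and 5.971 on untreated arrays A to D. It was higher with TGFβ within every letter, but the letters differed far more than the treatments, and the difference was -0.12 without untreated A and -0.13 without TGFβ B. COL13A1, a transmembrane collagen of cell contacts, had 11.29 ± 0.083 on TGFβ arrays and 11.41 ± 0.068 on untreated arrays (SD, n = 4 each) and was lower within every letter, by -0.12 ± 0.087 (SE, adjusted p = 0.827). COL18A1, the basement membrane chain that contains endostatin, had 0.24 ± 0.15 (SE) and its second probe set 0.23. The other 7 were COL15A1 with -0.17, COL23A1 with 0.14, COL28A1 with -0.09, COL6A5 with 0.08, COL25A1 with 0.05, COL26A1 with 0.03 and COL6A6 with 0.00.

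The groups did not overlap in 4 of the 43 genes, COL1A1, COL4A1, COL16A1 and COL27A1, each with the TGFβ arrays above, where 2.9% of all genes have the TGFβ arrays all above and 2.21% all below. TGFβ was higher within all 4 letters in 11 of the 43 genes, beside 11.7% of all genes, and lower within all 4 in 3, beside 10.7%. No chain with the TGFβ arrays all below was found among the 43. The upper 60% of signals, which leave out the dim members, kept 18 collagen genes. Their median log2 fold change was 0.76 for 4 fibrillar, 0.26 for 4 network, -0.055 for 3 FACIT and 0.10 for 7 other chains. The 4 fibrillar chains were COL1A1, COL5A1 and COL27A1, which were called with the block, and COL11A2 with 0.14. The fibrillar median thus largely restates those calls. The median of all genes in this filter is not given here, so these medians are not read as class differences.

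Partner chains, which assemble together, were also set against each other. For each of 9 partner pairs, the log2 ratio of the 2 chains was formed on each array and compared between groups with an exact two-sided permutation test, whose smallest p with 4 against 4 arrays is 0.0286. Only differences of the ratio between groups are read, since signals of different probe sets have no common scale. The ratio of COL1A1 to COL1A2 was 3.888, 4.634, 4.708 and 4.246 on TGFβ arrays, against 2.596, 2.742, 2.855 and 2.649 on untreated arrays. It did not overlap and was higher by 1.66 with TGFβ (exact permutation p = 0.0286, adjusted p = 0.129 over the 9 pairs, higher in 4 of 4 letters). This ratio rests on COL1A1 probe set 1556499_s_at. Of the others, 202310_s_at had a log2 fold change of 1.47, but 3 had only 0.19, 0.15 and 0.06. Ratios with these were not tested. The ratio of COL4A1 to COL4A2 was 0.151, -0.122, -0.356 and -0.309 on TGFβ arrays, against -0.949, -0.597, -0.909 and -0.818 on untreated arrays. It was higher by 0.66 (exact permutation p = 0.0286, adjusted p = 0.129, higher in 4 of 4 letters), so that within every letter the difference of COL4A1 exceeded that of COL4A2. COL5A1 over COL5A2 was higher by 0.87 (exact permutation p = 0.0857, adjusted p = 0.257, higher in 4 of 4 letters). For the other 6 pairs the difference lay between -0.31 and -0.02, with exact permutation p-values of 0.171 to 0.914. Among these, the ratios of COL8A1 to COL8A2, COL4A3 to COL4A4 and COL11A1 to COL11A2 were lower in 4 of 4 letters. COL8A1 to COL8A2 differed by -0.308, -0.361, -0.302 and -0.282 within letters A to D. Within letters, the exact sign-flip p of all 3 and of the 3 pairs that were higher was 0.125, the smallest that 4 letters allow. No pair passed after adjustment over the 9. The smallest possible exact permutation p of 0.0286 gave an adjusted p of 0.129 here. Pairs at this floor could not pass unless many more of the 9 had also reached it. No absence of change is therefore concluded from the adjusted values. In 5 of the 9 pairs, including those of COL5A1 and COL8A1, a chain had a signal below the array median on all 8 arrays and is not shown to be above background. COL5A2 lay between 2.624 and 3.005, and the difference of its pair is close to the 0.91 of COL5A1 itself, so that these ratios do not show whether the partners moved alike. COL1A2 lay below the array median on 7 of the 8 arrays.

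**Figure D4:**
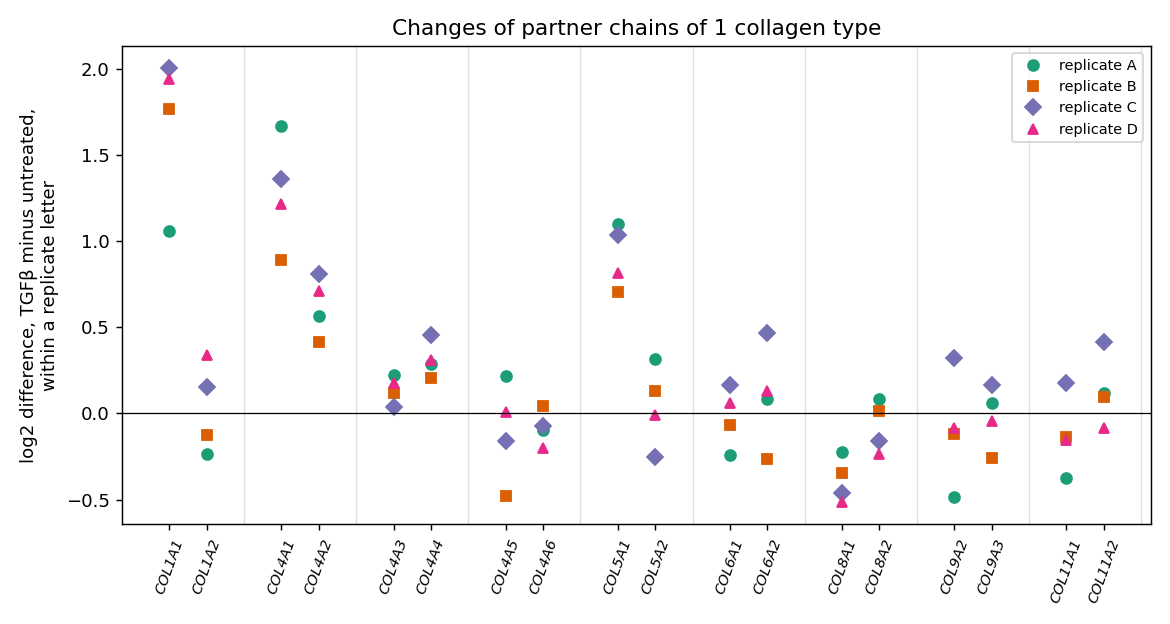
Log2 difference within each replicate letter, TGFβ minus untreated (vertical axis), for the chains of 9 partner pairs (horizontal axis). Each point is a letter. COL1A1 lies between 1.06 and 2.01 and its partner COL1A2 on both sides of 0, and COL4A1 lies above COL4A2 in each letter.

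Much of the spread of the collagen genes, as of all genes, lay between replicate letters and not between treatments. The letter has 4 levels and the treatment 2, so the letter tends to take the larger share even without an effect of either. The letter took more than 50% of a gene's sum of squares over the 8 arrays in 25 of the 43 genes, and the treatment did so in 6. Such counts over all genes are not given here, so these are not read as a trait of the collagens. The median share of the letter was 56.4%, beside 55.8% over all genes, and that of the treatment was 9.11%, beside 9.11% over all genes. The letter took over 90% in 5 genes, COL6A1, COL6A3, COL4A6, COL9A1 and COL12A1, a count also given without its share over all genes. COL6A1 had 8.069, 9.713, 9.156 and 8.870 on TGFβ arrays A to D, against 8.311, 9.779, 8.992 and 8.810 on untreated arrays A to D, with 98.1% of its sum of squares between letters. Letter A was lowest and letter B highest in both groups. The mean of letter B exceeded that of letter A by 1.56 in COL6A1 and by 2.65 in COL6A3. COL12A1 was high in letter A instead, with 8.946 on the TGFβ array and 8.745 on the untreated array, against 7.749 to 7.904 on the other TGFβ arrays and 7.879 to 8.141 on the other untreated arrays. In COL1A1 the letter took 3.36% and the treatment 92.1%.

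**Figure D5:**
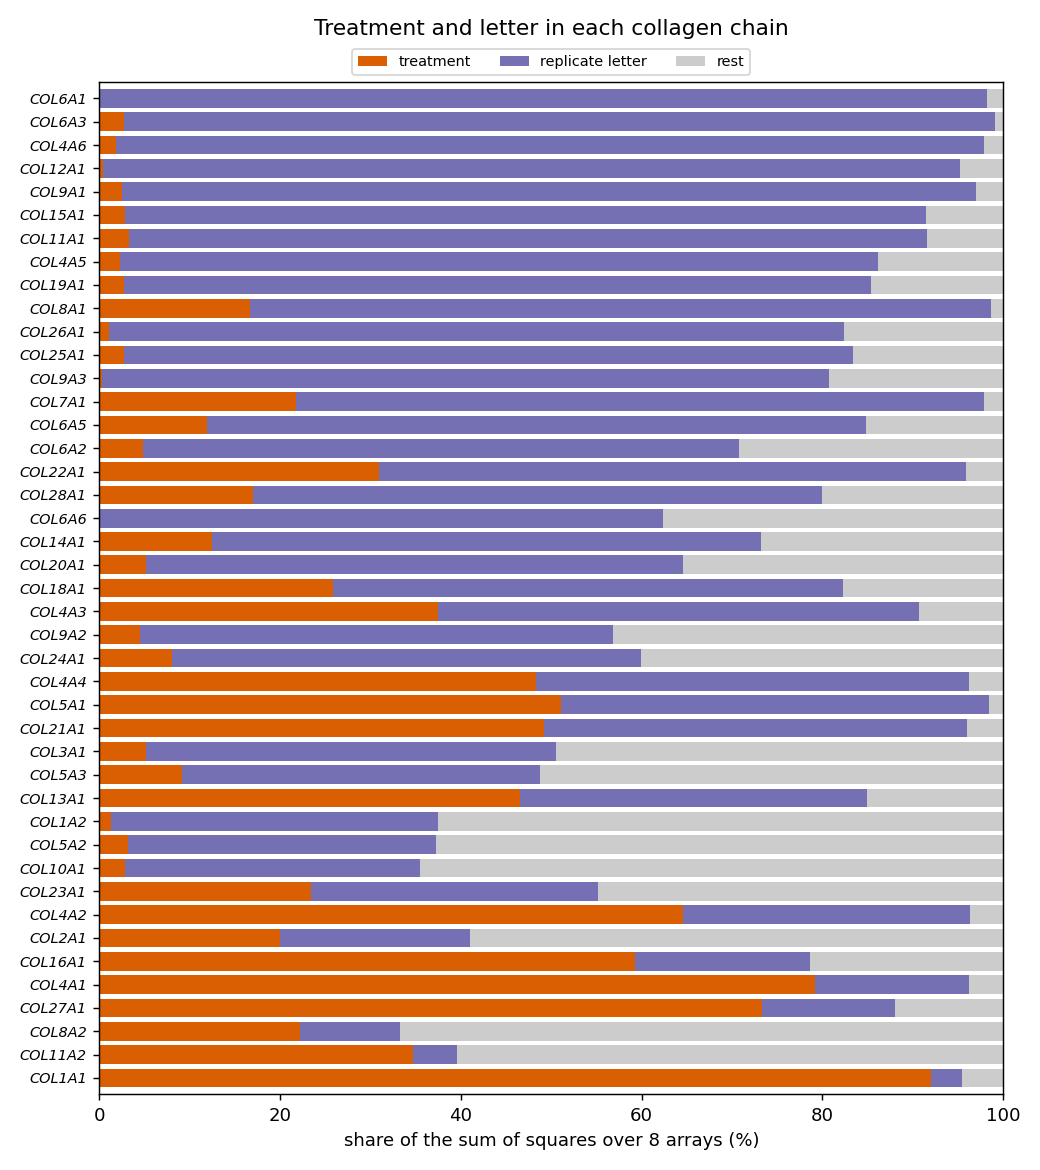
Share of each collagen gene's sum of squares over the 8 arrays (horizontal axis, %) that goes with the treatment, with the replicate letter and with neither, 1 bar for each of the 43 genes. Genes are ordered by the share of the letter, from COL6A1 with 98.1% at the top to COL1A1 with 3.36% at the bottom.

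The list of genes that hydroxylate, fold, secrete, process or crosslink collagen, or that serve as its receptors, held 43 genes. COLGALT2 and the receptor DDR1 were not measured, and the other 41 were. Of the 41, 0 passed without the block. At an unadjusted p under 0.05, 3 were higher and 1 was lower (limma), beside 3.95% and 4.19% of all genes. With the block, 0 rose and 1 fell, beside 1.39% and 2.18% of all genes. Their median log2 fold change was 0.064, with a range of -0.47 to 0.28. By role, the median was 0.092 for 19 hydroxylases, chaperones and secretion genes, 0.045 for 8 genes of propeptide processing, -0.10 for 5 crosslinking genes of the lysyl oxidase family and 0.15 for 9 receptors.

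ITGA10, the alpha subunit of a collagen-binding integrin, had 6.832, 7.484, 7.249 and 7.172 on TGFβ arrays A to D, against 7.359, 8.163, 7.441 and 7.658 on untreated arrays A to D. The groups overlapped, and TGFβ was lower within each letter. Its log2 fold change was -0.47 ± 0.19 (SE, adjusted p = 0.512), and it fell with the block (adjusted p = 0.0256, limma). That call was lost without letter pair B (adjusted p = 0.168) or D (adjusted p = 0.108). ITGA11, another collagen-binding alpha subunit, had 4.963 to 5.104 on TGFβ arrays and 4.668 to 4.880 on untreated arrays, with no overlap. It was higher by 0.21 ± 0.087 (SE) at an adjusted p of 0.530 (limma). Only 2 of its 3 probe sets were higher with TGFβ, and its signal was not among the upper 60%. BMP1, the protease that removes the C-terminal propeptide of fibrillar collagens, had 0.28 ± 0.10 (SE, adjusted p = 0.417). CREB3L1, a transcription factor of the secretory pathway that acts on type I collagen genes in bone, had 0.28 ± 0.10 (SE, adjusted p = 0.451). None of the last 3 passed with the block either.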

How the data were processed

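RNA of 8 cultures was hybridised to Affymetrix arrays. The deposited values are log2 signals from RMA, as the submitters' processing notes name it. The version is not given in the sources used here, and the log base was taken from the range of the values. Of 54675 probe sets, 62 Affymetrix controls were left out. Of the rest, 41091 name 1 gene, 1801 several and 11721 none in the platform annotation. No raw scans were used, so background and normalization are the authors'.

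TGFβ and untreated arrays, 4 each, were compared with limma 3.58.1 (R 4.3.3), with Benjamini-Hochberg adjustment over 19775 genes and a threshold of 0.05. The script was tested on simulated data. Same-letter arrays deviated together (correlations of 0.49, 0.69, 0.34 and 0.30 for A to D over genes), so the letter was also fitted as a block. Partner ratios were tested with SciPy 1.17.1. Alternatives were the block, another filter, scaling, prior or probe set rule, and leaving out arrays. Precision rests on 4 arrays in each group. The p-values without the block measure the spread between these cultures. Those with the block measure the spread of the differences within letters, with the spread between letters taken out.

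The members, classes and lists were chosen with earlier results of these data known. Every collagen gene could be named, and from the biosynthesis and receptor list those that passed and the 4 with the smallest p.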

Additional observations from a re-analysis of the deposited data

Results flagged for a closer look

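Each of the 43 collagen genes in each of the 2 groups gave a set of 4 arrays, 86 in all. In 8 of the 86, the highest array lay far from the other 3 for their range, by Dixon's test at the 95% level. The nominal rate for independent sets is about 1 in 20, but these sets share the same 8 arrays and letters. The share over all genes is not given here, so the count is not read as an excess or as a result about the collagens. COL4A1 had 10.094 on untreated B, with 9.245 on the next untreated array. COL4A2 had 10.691 on untreated B, with 10.070 on the next. COL4A6 had 4.610 on TGFβ B, with 3.900 on the next TGFβ array. COL27A1 had 7.248 on TGFβ B, with 6.762 on the next. COL8A1 had 10.857 on TGFβ A, with 9.877 on the next, and 11.082 on untreated A, with 10.237 on the next. COL11A1 had 3.356 on TGFβ A, with 2.845 on the next. COL12A1 had 8.946 on TGFβ A, with 7.904 on the next. The gaps fell on letters A and B, and 3 of the 8 on TGFβ A.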

How the results depend on the processing

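None of the 7 collagen genes called in either fit changed sign under the alternatives run, while 22 of the 36 others did under at least 1, among them COL6A3 (0.32, and -0.12 without untreated A) and COL4A5 (-0.10, and 0.090 without untreated B). This contrast follows largely from the choice of genes, since genes were called for changes that are large for their spread. All alternatives also reuse the same 8 arrays. The count of collagen genes called was 2, and 7 with the replicate block (letters as pairs), 1 with each gene's probe sets averaged, where COL4A1 had an adjusted p of 0.0514, COL1A1 had 0.71 in place of 1.69 and COL27A1 0.29 in place of 0.60, and 1 without _x_at and _s_at probe sets, where COL1A1 has none. Leaving out arrays or letter pairs gave 1 to 8 calls. Block fits without letter pairs A, B, C and D, added after the data were seen, gave 8, 4, 4 and 6. The shares of all genes called when arrays or pairs were left out are not given here. These counts are therefore not read as results about the collagens. For the biosynthesis and receptor genes the count was 0, and 1 with the replicate block, and leaving out arrays or pairs gave 0 to 2. The upper 60% of signals kept 18 of the 43 collagens. With this filter the class medians became 0.76 (fibrillar), 0.26 (network), -0.055 (FACIT) and 0.10 (other chains). Leaving out arrays or pairs moved the fibrillar median between 0.041 and 0.152, the network median between -0.023 and 0.099 and the FACIT median between -0.017 and 0.096. The network and FACIT medians also turned negative with another quantile normalization. Re-centring, that normalization and a trended robust prior left the 2 calls in place. The block changed no call other than those given above.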
